A study of Mus musculus with 6 samples.

Results

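The genes described here build and run the mitotic spindle and part the chromosomes. A fixed list of 43 symbols, from cyclin B and its kinase through kinetochore, kinesin and condensin subunits to the proteins of cytokinesis, was looked up in the table of 24964 genes, and all 43 were found. They were measured by RNA-seq in the uterine luminal epithelium, the cell layer facing the uterine cavity, taken by laser capture from females on pregnancy day 4. The control group, Foxo1ff, had the genotype Foxo1f/f, with both Foxo1 alleles floxed and no Cre (3 samples). The other group, Foxo1dd, had the genotype Pgrcre/+Foxo1f/f, with the same floxed alleles and 1 copy of Cre at the progesterone receptor locus (3 samples). This Cre acts wherever the progesterone receptor gene is expressed, in uterine stroma as well as epithelium, and it also alters 1 Pgr allele, so the groups differ at both loci. Females were kept with their littermates to 8 weeks of age before mating. The samples of a group are numbered bioreplicates, and nothing more is said of the animals behind them, so a p-value here speaks only of how far these samples scatter, which may be technical.

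As background, mitotic genes are transcribed mainly in the G2 and M phases of the cell cycle, and cells that leave the cycle shut them off as a set. In resting cells the DREAM complex, which holds RBL1 or RBL2 with E2F4 and the LIN proteins, represses them through short promoter elements. In dividing cells MYBL2 and FOXM1 replace it and activate the same genes. In the mouse uterus the luminal epithelium divides under estrogen and stops dividing under progesterone before the embryo attaches.

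Values are FPKM, a level scaled by gene length and library size. The FPKM of all genes added up to between 613186 and 667499 in a Foxo1ff sample and to between 552190 and 564628 in a Foxo1dd sample. Sample Foxo1dd 2 stood apart, with 13995 genes above 0 against 15474 to 16062 in the other samples. Foxo1 itself was 160.0, 118.5 and 110.8 FPKM in the Foxo1ff samples, against 1.72, 0.942 and 1.22 FPKM in Foxo1dd. Pgr had 2.44, 1.64 and 2.02 FPKM in the Foxo1ff samples, against 36.2, 29.9 and 28.3 FPKM in Foxo1dd. Of 10 epithelial markers 2 fell (Epcam and Cdh1), 3 rose (Krt8, Krt19 and Cldn3) and 5 were not called, and their summed level was 3109 to 4160 FPKM among the Foxo1ff samples and 4321 to 5310 FPKM among the Foxo1dd samples. Epcam, a defining marker, had 497.4 to 590.7 FPKM in the former and 382.6 to 405.6 FPKM in the latter. Of 12 stroma markers 9 reached the minimum mean of 1 FPKM. Of these 2 rose (Col3a1 and Nr2f2), 0 fell and 7 were not called. The summed level of all 12 was 36.4 to 40.8 FPKM in Foxo1ff and 38.6 to 56.5 FPKM in Foxo1dd. Nr2f2 gave most of this sum, at 21.9, 23.3 and 20.7 FPKM in the Foxo1ff samples, against 31.4, 24.98 and 30.4 FPKM in Foxo1dd. The summed level of 9 endothelial markers stayed at or below 7.15 FPKM in every sample.

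Mitotic genes were lower in the Foxo1dd epithelium, nearly as a block. Of the 43 members, 40 fell and 0 rose by limma at an adjusted p under 0.05 over 11427 tested genes, of which 34.2% were called lower and 22.2% higher. The median log2 change of the members was -2.53, against -0.15 over all tested genes. No member was higher at an unadjusted p under 0.05 (0 of 43). For 40 members all 3 Foxo1dd values lay below all 3 Foxo1ff values, a separation found in 39.0% of tested genes. Adjusted p of the called members ran from 4.93e-06 (Mki67) to 0.0196 (Spc25). Without Foxo1dd 2, 39 members fell, and Spc25 was the one lost. Members such as Kif2c and Bub1 (Foxo1dd means of 0.014 and 0.024 FPKM) reached the minimum mean of 1 FPKM only through Foxo1ff. With no filter on low values 39 of 43 members fell. Fewer dividing cells and less of each RNA per dividing cell cannot be told apart in bulk samples.

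**Figure D1:**
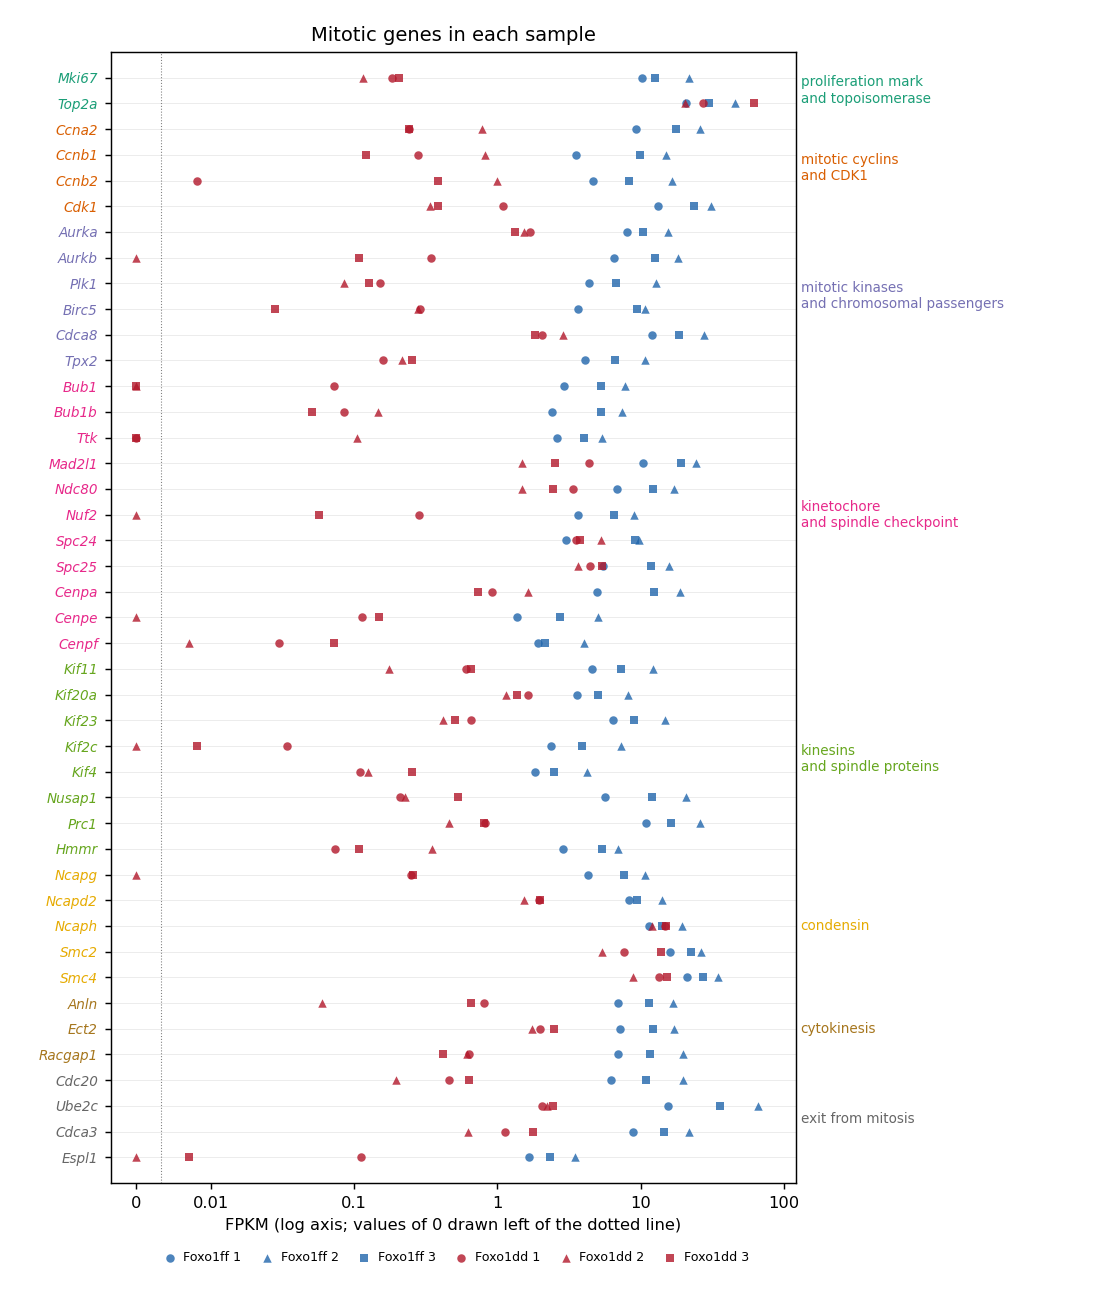
FPKM of each of the 43 mitotic genes in the 6 samples, on a log axis, grouped by role (label colours); blue symbols are Foxo1ff samples, red symbols Foxo1dd samples, and values of 0 are drawn left of the dotted line. For 40 genes the red symbols lie wholly below the blue ones, and Top2a, Ncaph and Spc24 are the exceptions.

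The level that remained in Foxo1dd varied widely among the members. The Foxo1dd mean was under 5% of the Foxo1ff mean for 24 members, 5% to 10% for 6 and 10% to 25% for 7. It lay between 25% and 70% for 4 members (Spc25, Smc2, Smc4 and Spc24) and above 70% for 2 (Ncaph and Top2a). At least 1 Foxo1dd sample was listed at 0 for 8 members, 7 of them in Foxo1dd 2. These shares are ratios of FPKM means. The log2 changes are on the log2(FPKM + 1) scale and understate the change of genes with low levels.

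Mki67, whose protein Ki-67 coats mitotic chromosomes and is the standard marker of cycling cells, had 10.2, 21.7 and 12.5 FPKM in the Foxo1ff samples, against 0.185, 0.115 and 0.206 FPKM in Foxo1dd. The groups were far apart, with 1.14% of the level remaining (log2 change -3.69 ± 0.25, SE, 3 samples a group, limma adjusted p = 4.93e-06). Top2a, the topoisomerase that untangles sister chromatids, did not follow. It had 20.5, 45.6 and 29.9 FPKM in the Foxo1ff samples, against 27.1, 20.3 and 61.4 FPKM in Foxo1dd, and the highest of the 6 values belonged to Foxo1dd 3. Its log2 change was 0.09 ± 0.39 (SE, 3 samples a group, limma adjusted p = 0.862), and it turned negative without Foxo1ff 1 (-0.18) or without Foxo1dd 3 (-0.36). Top2a lies on chromosome 11 (98992943 to 99024189, minus strand, mm10), where its exons overlap Gm23451 on the same strand, so reads of the pair may not be separable.

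All 4 genes of the cyclin-CDK core of mitosis fell. Cdk1, the kinase that drives entry into mitosis, had 13.2, 30.9 and 23.4 FPKM in the Foxo1ff samples, against 1.10, 0.340 and 0.387 FPKM in Foxo1dd. Its log2 change, -3.83 ± 0.30 (SE, 3 samples a group, limma adjusted p = 1.01e-05), was the largest fall among the members on this scale. Ccna2, cyclin A2, had 9.31, 25.8 and 17.5 FPKM against 0.242, 0.777 and 0.240 FPKM. The B-type cyclins, partners of CDK1, behaved alike in level. Ccnb1 went from 9.43 ± 5.75 to 0.406 ± 0.364 FPKM and Ccnb2 from 9.78 ± 6.03 to 0.463 ± 0.501 FPKM (SD, n = 3 each). In Foxo1dd, sample 2 was the highest for Ccna2, Ccnb1 and Ccnb2, and sample 1 for Cdk1.

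The mitotic kinases and their partners fell, 6 of 6. Aurkb, Birc5 (survivin) and Cdca8 (borealin) belong to the chromosomal passenger complex, which corrects faulty spindle attachments. Aurkb had 6.54, 18.3 and 12.6 FPKM in the Foxo1ff samples, against 0.343, 0 and 0.108 FPKM in Foxo1dd, and Birc5 had 3.65, 10.7 and 9.34 FPKM against 0.288, 0.277 and 0.028 FPKM. Cdca8 kept more, 11.6% of its Foxo1ff mean, at 2.06, 2.84 and 1.82 FPKM in Foxo1dd. It overlaps antisense exons of 9930104L06Rik. Plk1, a kinase of spindle assembly, fell to 1.53% (log2 change -2.88 ± 0.31, SE, 3 samples a group, limma adjusted p = 6.40e-05). Aurka, the centrosomal Aurora kinase, kept 13.4%, whereas Tpx2, which activates Aurora A on the spindle, kept 2.95%.

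At the kinetochore, the protein plate that ties chromosomes to microtubules, 10 of 11 members fell. The spindle checkpoint kinases Bub1 and Ttk were near 0 in Foxo1dd: Bub1 had 2.92, 7.77 and 5.28 FPKM in Foxo1ff against 0.072, 0 and 0, and Ttk had 2.61, 5.38 and 3.99 FPKM against 0, 0.104 and 0. Bub1b, the BubR1 checkpoint protein, kept 1.88% of its level. Mad2l1, the MAD2 protein that holds back CDC20, kept 15.5%, with 4.32, 1.48 and 2.53 FPKM in Foxo1dd. Cenpa, the histone variant that marks the centromere, had 4.98, 18.7 and 12.3 FPKM against 0.918, 1.64 and 0.729 FPKM. The large kinetochore proteins Cenpe and Cenpf had low levels in Foxo1ff (means of 3.04 and 2.70 FPKM) and kept 2.86% and 1.35%.

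The 4 subunits of the NDC80 complex, the microtubule anchor of the kinetochore, did not fall evenly. Nuf2 had 3.67, 8.97 and 6.52 FPKM in the Foxo1ff samples, against 0.282, 0 and 0.057 FPKM in Foxo1dd. Ndc80 had 6.86, 16.9 and 12.2 FPKM against 3.38, 1.49 and 2.44 FPKM. Spc25 had 5.48, 15.7 and 11.8 FPKM against 4.44, 3.65 and 5.32 FPKM, so that Foxo1dd 3 came close to Foxo1ff 1. Spc24 had 2.99, 9.63 and 9.11 FPKM against 3.55, 5.23 and 3.74 FPKM, and Foxo1ff 1 was the lowest of all 6 samples. Spc24 (chromosome 9, 21755442 to 21760303, minus strand, mm10) was not called (log2 change -0.56 ± 0.35, SE, 3 samples a group, limma adjusted p = 0.206). Without Foxo1ff 1 its change was -1.02 and it passed (limma adjusted p = 0.00363). The call of Spc25 (-1.04 ± 0.32, SE, adjusted p = 0.0196) was lost without Foxo1ff 2 (0.0752), Foxo1ff 3 (0.0659), Foxo1dd 1 (0.0581) or Foxo1dd 2 (0.0508), and with no filter on low values (0.0679).

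The imbalance within the complex was measured as the difference of log2(FPKM + 1) between subunits in each sample, for 3 pairs picked after their values had been seen. Nuf2 minus Spc24 was -0.10 ± 0.33 in Foxo1ff and -2.21 ± 0.41 in Foxo1dd (SD, n = 3 each, two-sided exact permutation p = 0.1). Ndc80 minus Spc25 went from 0.14 ± 0.12 to -0.70 ± 0.33 (SD, n = 3 each, exact permutation p = 0.1). In condensin, Ncapg minus Ncaph went from -0.95 ± 0.24 to -3.67 ± 0.016 (SD, n = 3 each, exact permutation p = 0.1). The groups did not overlap in any of the 3. Because the pairs were picked from these same values, neither the lack of overlap nor the p-values are independent support for an imbalance. An exact permutation p of 0.1, raw and adjusted over the 3 pairs, is the smallest that 3 against 3 samples can give.

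Condensin, the ring that compacts mitotic chromosomes, had 4 of 5 members lower, with log2 changes from -2.80 to -0.07. Ncapg, a subunit particular to condensin I, had 4.28, 10.7 and 7.62 FPKM in the Foxo1ff samples, against 0.249, 0 and 0.258 FPKM in Foxo1dd. Ncapd2 of the same complex kept 17.3%, and it overlaps Gm28967 and Scarna10 on the same strand. Ncaph, which closes that ring, had 11.3, 19.5 and 14.1 FPKM in the Foxo1ff samples, against 14.8, 11.9 and 15.0 FPKM in Foxo1dd, so the groups overlapped. Ncaph (chromosome 2, 127103809 to 127133954, minus strand, mm10) overlaps no other annotated exon. Its log2 change was -0.07 ± 0.20 (SE, 3 samples a group, limma adjusted p = 0.771), and its sign turned under median-of-ratios scaling (0.04), under quantile normalization (0.05) and without Foxo1ff 2 (0.12) or Foxo1dd 2 (0.03). The ATPases Smc2 and Smc4, which condensin I and II share, fell to 41.4% and 45.1%. Smc2 had 16, 26.2 and 22.3 FPKM against 7.60, 5.40 and 13.7 FPKM, and Smc4 had 20.96, 34.6 and 27.3 FPKM against 13.3, 8.87 and 15.3 FPKM.

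**Figure D2:**
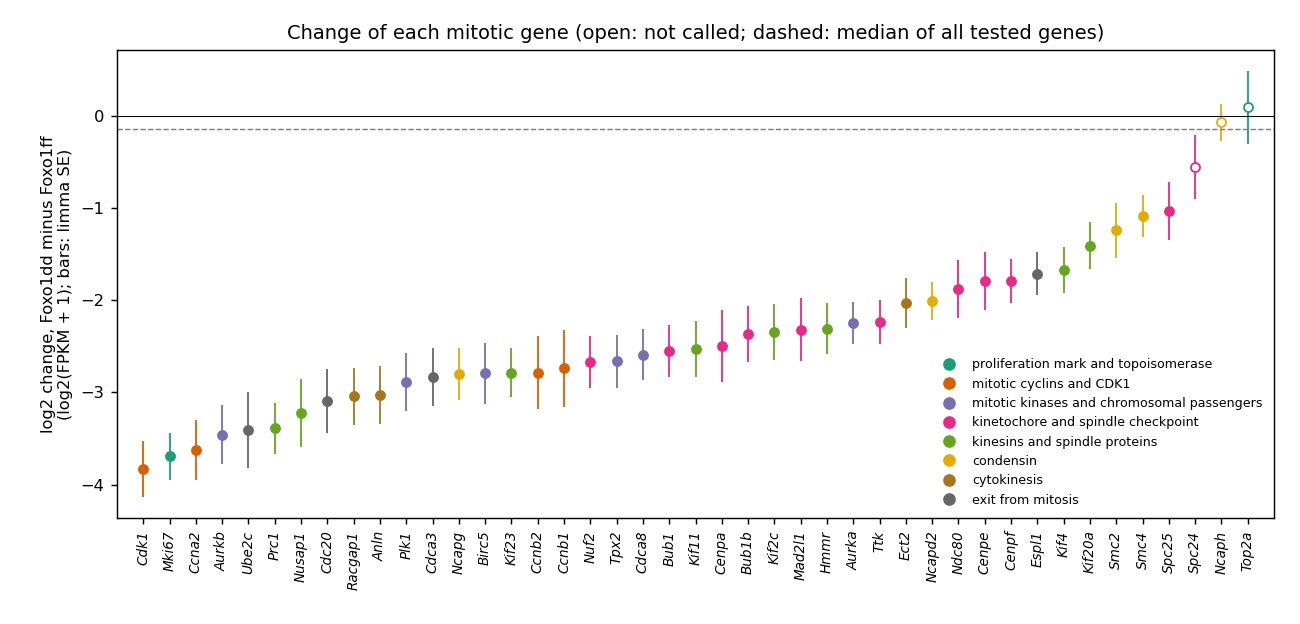
Log2 change of each mitotic gene (Foxo1dd minus Foxo1ff, log2(FPKM + 1) scale) with its limma standard error, ordered by size and coloured by role; open circles were not called and the dashed line is the median of all tested genes (-0.15). The changes run from -3.83 for Cdk1 to 0.09 for Top2a, and the right end holds 3 of the 5 condensin genes with Spc25, Spc24 and Top2a.

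All 8 kinesins and spindle proteins fell. Kif11 (Eg5), the motor that pushes the spindle poles apart, had 4.57, 12.1 and 7.23 FPKM in the Foxo1ff samples, against 0.602, 0.174 and 0.654 FPKM in Foxo1dd. Kif2c (MCAK), which shortens microtubules at the centromere, had 2.38, 7.31 and 3.86 FPKM against 0.034, 0 and 0.008 FPKM and kept the smallest share of any member, 0.310%. Its Foxo1dd values rest on few reads (1 read is 0.0051 to 0.0068 FPKM for a 2 kb gene), so its rank is uncertain. Prc1, which bundles the central spindle, had 10.9, 25.9 and 16.1 FPKM against 0.822, 0.456 and 0.809 FPKM. It overlaps antisense exons of Rccd1. Nusap1 and Hmmr, both microtubule-binding proteins of the spindle, kept 2.54% and 3.51%, and the chromosome-bound motor Kif4 kept 5.77%. Kif23 (MKLP1) kept 5.24% and Kif20a (MKLP2) 24.9%, at 1.64, 1.15 and 1.37 FPKM in Foxo1dd. Exons of Kif20a overlap those of Cdc23 on the other strand, and Cdc23 had 20.8 to 27.8 FPKM in Foxo1dd. The strand setting of the counting is not given in the sources used here, so the share of Kif20a reads that belongs to Cdc23 cannot be told apart.

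The 3 cytokinesis genes fell, as did the 4 genes grouped here under exit from mitosis (Cdc20, Ube2c, Cdca3 and Espl1). That label is not meant as the role of Cdca3. Anln (anillin), a scaffold of the cleavage furrow, had 6.88, 16.7 and 11.4 FPKM against 0.810, 0.060 and 0.651 FPKM. Racgap1, the partner of KIF23 in centralspindlin, had 6.96, 19.7 and 11.6 FPKM against 0.634, 0.609 and 0.415 FPKM. Ect2, the exchange factor they recruit to activate RhoA, kept more, 17.1%. Cdc20, an activator of the anaphase promoting complex, had 6.15, 19.8 and 10.8 FPKM against 0.458, 0.197 and 0.633 FPKM. Ube2c, the ubiquitin-conjugating enzyme of that complex, had the highest single Foxo1ff value of the members (15.5, 65.3 and 35.7 FPKM) and 2.06, 2.21 and 2.45 FPKM in Foxo1dd. Cdca3 kept 7.80%, and Espl1, the separase that cuts cohesin, kept 1.60% at 0.112, 0 and 0.007 FPKM.

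Within Foxo1ff the members moved together from sample to sample. Sample Foxo1ff 2 was the highest and Foxo1ff 1 the lowest of the 3 for all 43 members, the uncalled Top2a, Ncaph and Spc24 included, whereas this order held for 18.3% of tested genes. The median ratio of Foxo1ff 2 to Foxo1ff 1 was 2.46 over the members (1.64 to 4.28) and 0.993 over all tested genes. The median coefficient of variation within Foxo1ff was 43.1% for the members and 12.4% for all tested genes. Summed over the members, the level was 297.4, 743.0 and 496.0 FPKM in the Foxo1ff samples, against 99.9, 78.0 and 140.4 FPKM in Foxo1dd, where Top2a alone gave 27.1, 20.3 and 61.4 FPKM. In Foxo1dd no sample held the top place throughout: sample 1 was highest for 16 members, sample 2 for 9 and sample 3 for 18. This spread is close to that of all 11427 tested genes, of which 4667, 2545 and 4215 were highest in samples 1, 2 and 3. Among 10 epithelial markers, 9 were highest in Foxo1ff 1, with a summed level of 4160, 3235 and 3109 FPKM in Foxo1ff 1, 2 and 3. The 15 leukocyte markers summed to 94.4, 105.5 and 57.2 FPKM in these samples. Most of the difference between them was Lyz2 alone, at 54.2, 61.3 and 14.8 FPKM. The part of either cell type in this order was not tested.

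**Figure D3:**
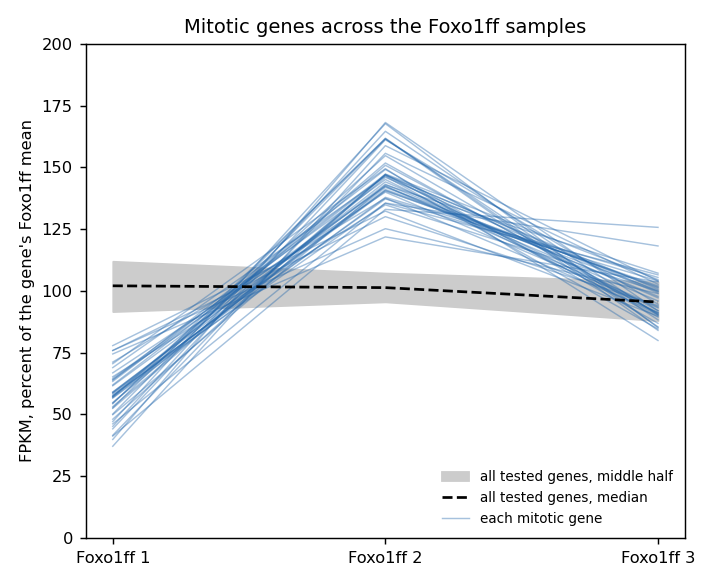
FPKM of each mitotic gene in the 3 Foxo1ff samples as a percent of its own Foxo1ff mean; thin lines join the values of 1 gene, the dashed line is the median and the grey band the quartiles of all tested genes. Every line peaks at Foxo1ff 2, at 122% to 168% of the mean, and is lowest at Foxo1ff 1, at 37.1% to 77.9%.

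Markers of other cells moved beside the fall of the mitotic genes. Of 15 leukocyte markers 10 reached the minimum, of which 8 fell and 2 rose, with Ptprc, the pan-leukocyte CD45 gene, at 3.75, 4.06 and 2.96 FPKM in the Foxo1ff samples, against 0.252, 0.372 and 0.258 FPKM in Foxo1dd. The summed level of the list was 57.2 to 105.5 FPKM in Foxo1ff, of which Lyz2 gave 14.8 to 61.3 FPKM. It was 81.5 to 98.2 FPKM in Foxo1dd, where most of it came from Laptm5 (53.2 to 70.7 FPKM). Of 8 gland markers 4 reached the minimum, of which 3 fell and 1 rose, and Ttr was listed at 0 in every sample. Over all tested genes 34.2% were lower and 22.2% higher. The minimum shaped these directions. Spink1, Prss28 and Prss29 (Foxo1dd means of 0.124, 0.066 and 0.278 FPKM) reached it only through Foxo1ff. Lif (Foxo1ff mean of 0.269 FPKM) reached it only through Foxo1dd. Ptprc and Csf1r of the leukocyte list reached it only through Foxo1ff. The summed gland level was 51.8 to 209.8 FPKM in Foxo1ff and 1.04 to 6.83 FPKM in Foxo1dd, and in Foxo1ff it was highest in sample 3. Most of the Foxo1ff sum was Spink1, at 44.2, 57.2 and 178.4 FPKM. Foxa2 overlapped between the groups, at 0.643, 0.830 and 1.357 FPKM in Foxo1ff against 0.908, 0.399 and 0.626 FPKM in Foxo1dd. Lif was higher in Foxo1dd, at 0.573 to 5.33 FPKM against 0.145 to 0.388 FPKM. The part of leukocytes or gland cells in the fall of the mitotic genes was not tested.

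Promoters of the members were read for the CHR element, the short site through which DREAM and its activating counterparts act on mitotic genes. Of the 43 members, 37 had a RefSeq promoter (GRCm38.p6, the assembly that mm10 names), and Ccna2, Aurkb, Tpx2, Kif20a, Smc4 and Spc24 had none in the table. The letters TTTGAA or TTCGAA, searched on both strands from 250 bases before to 50 after the start, were present in 30 of 37 members (81.1%). The same letters were in 19.4% of 27025 promoters and in 13.5% of the 8983 promoters of tested genes. In the 250 bases before the start alone, the share was 37.8% of members and 17.4% of all promoters. CCAAT boxes, bound by NF-Y, often accompany the element, and CCAAT on either strand was in 29 of 37 members (78.4%) against 37.9% of all promoters in the full window. A forkhead element, GTAAACA on either strand, was in 2 of 37 members, Nuf2 and Ect2 (5.41%), against 3.55%. Matches of different motifs could overlap and none was removed for it. The members were chosen as cell-cycle genes, so these shares describe them and are not independent of that choice. A match is a run of letters and not a measured binding site.

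For each member, the longest run outside every GENCODE exon was taken from the 200 bases before the RefSeq start, and 11 called members held a CHR match in that run. The stretches below belong to the 6 of these 11 with the smallest p. Prc1 has a smaller p than some of them, but its match begins 5 bases before the start and runs across it, so it is not shown. Each stretch reads 5′ to 3′ on the gene's strand. The capitals mark TTTGAA or the variant form TTCGAA, and TTCAAA where the first of these lies on the opposite strand. They lie at chr7:135716380-135716579 (Mki67, minus strand), chr10:69352939-69353112 (Cdk1, minus strand), chr5:45669725-45669918 (Ncapg, plus strand), chr6:125191702-125191786 (Ncapd2, minus strand), chr4:118437353-118437543 (Cdc20, minus strand) and chr19:37376182-37376381 (Kif11, plus strand), all in GRCm38.
Mki67: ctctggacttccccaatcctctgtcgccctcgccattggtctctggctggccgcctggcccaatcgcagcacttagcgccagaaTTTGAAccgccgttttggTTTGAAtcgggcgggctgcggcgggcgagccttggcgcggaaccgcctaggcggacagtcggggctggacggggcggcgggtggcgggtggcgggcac
Cdk1: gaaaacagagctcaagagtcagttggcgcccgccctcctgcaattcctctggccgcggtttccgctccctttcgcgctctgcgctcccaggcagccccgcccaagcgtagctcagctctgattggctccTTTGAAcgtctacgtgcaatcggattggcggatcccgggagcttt
Ncapg: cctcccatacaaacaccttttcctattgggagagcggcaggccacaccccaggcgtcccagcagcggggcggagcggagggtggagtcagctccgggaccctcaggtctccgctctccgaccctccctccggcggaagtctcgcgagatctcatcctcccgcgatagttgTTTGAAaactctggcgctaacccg
Ncapd2: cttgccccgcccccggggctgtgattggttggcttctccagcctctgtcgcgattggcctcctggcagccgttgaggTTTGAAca
Cdc20: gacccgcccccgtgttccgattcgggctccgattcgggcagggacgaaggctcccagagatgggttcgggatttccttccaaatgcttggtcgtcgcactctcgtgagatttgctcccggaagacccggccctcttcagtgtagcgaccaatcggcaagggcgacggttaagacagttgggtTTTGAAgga
Kif11: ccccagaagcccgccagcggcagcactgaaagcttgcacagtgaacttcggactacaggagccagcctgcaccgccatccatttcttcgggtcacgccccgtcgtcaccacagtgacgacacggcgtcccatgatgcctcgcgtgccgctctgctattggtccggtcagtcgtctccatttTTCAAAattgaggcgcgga

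In Mki67 the element occurs 2 times, starting 116 and 98 bases before the start. In Cdc20 it begins 18 bases and in Kif11 19 bases before the start, the latter on the opposite strand. The promoters of Top2a (chr11:99024190-99024389, minus strand) and Ncaph (chr2:127133955-127134154, minus strand) are shown for comparison, since these genes were not called, a choice made after their values had been seen.
Top2a: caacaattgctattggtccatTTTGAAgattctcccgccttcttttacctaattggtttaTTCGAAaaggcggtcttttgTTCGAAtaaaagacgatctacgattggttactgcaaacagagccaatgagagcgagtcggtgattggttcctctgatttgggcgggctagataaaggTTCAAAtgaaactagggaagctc
Ncaph: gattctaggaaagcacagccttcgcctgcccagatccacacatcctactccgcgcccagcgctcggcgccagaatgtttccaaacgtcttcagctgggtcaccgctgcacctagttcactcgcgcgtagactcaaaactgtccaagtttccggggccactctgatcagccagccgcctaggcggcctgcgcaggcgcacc

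Top2a held 4 matches, more than any other of the 37 members with a promoter, and was not called, while Ncaph held none in this window. Of the 30 members with a match, all but Top2a fell. Of the 7 members with a promoter but no match to these letters, 6 fell (Nuf2, Nusap1, Cenpe, Mad2l1, Birc5 and Ccnb1). Cdk1 held a second match within the stretch left out.

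Other genes of cell division were read from 7 lists beside the 43. Of 154 such genes, 145 were tested, of which 88 fell, 10 rose and 47 were not called, with a median log2 change of -0.68. Over all tested genes the shares were 34.2% lower and 22.2% higher, and the count of each list is to be read against these. Under median-of-ratios scaling or quantile normalization 17 rose. Several of the genes that fell reached the minimum mean of 1 FPKM only through Foxo1ff, so the minimum shaped this count. They include Esco2, Kntc1, Sgo1, Gtse1, Iqgap3 and Mybl2, with Foxo1dd means of 0.017 to 0.125 FPKM. With no filter on low values 85 of 154 fell and 8 rose. Scaling by median of ratios moved the median of all tested genes from -0.15 to -0.03, so small changes are to be read against that shift.

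Of 31 tested further kinetochore and centromere genes, 24 fell and 1 rose. Oip5, which loads CENP-A, and Kntc1, a checkpoint protein, went from 9.33 ± 2.56 to 0.498 ± 0.171 FPKM and from 4.87 ± 1.56 to 0.0440 ± 0.0382 FPKM (SD, n = 3 each). Cenpk and Cenpi, subunits of the inner kinetochore, kept 12.3% and 2.36%. Ska2, a subunit of the microtubule-binding SKA complex, was the one that rose, by 0.64 log2 (limma adjusted p = 0.00439), while Ska1 and Ska3 fell by 1.86 and 2.12 log2. Ska1 and Ska3 were picked for naming after their values had been seen.

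Of 29 further kinesin and spindle genes, 20 fell and 4 rose. Gtse1, Dlgap5 and Ckap2l, spindle proteins of G2 and mitosis, kept 0.951%, 2.33% and 4.58%. The largest rise on any of the 7 lists was that of Haus8, an augmin subunit that helps microtubules branch, with 5.74, 9.41 and 7.61 FPKM in the Foxo1ff samples, against 68.7, 60.2 and 115.6 FPKM in Foxo1dd (log2 change 3.23 ± 0.25, SE, 3 samples a group, limma adjusted p = 8.82e-06). Haus8 overlaps antisense exons of Myo9b. Nde1, a dynein regulator of centrosomes and nuclear movement, had 15.5, 20.5 and 16.05 FPKM against 75.1, 64.9 and 132.8 FPKM (log2 change 2.27 ± 0.25, SE, adjusted p = 6.38e-05) and overlaps antisense exons of Marf1. For both genes Foxo1dd 3 was the highest sample, as it was for Top2a. Among the Foxo1dd samples it was highest for 18 of 43 members and 4215 of 11427 tested genes.

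The cohesin and other condensin genes showed 8 falls, 0 rises and 10 uncalled genes of 18. Esco2, the acetyltransferase that secures cohesion in S phase, had 9.34, 28.8 and 22.7 FPKM against 0.018, 0 and 0.073 FPKM. Sgo1, the guardian of centromeric cohesin, and Cdca5 (sororin) kept 1.28% and 21.6%, and Ncapd3 of condensin II kept 54.4%. Among mitotic entry and passenger kinase genes, 15 of 19 fell and 0 rose. Pbk, a mitotic kinase, had 14.5, 38.1 and 31.6 FPKM against 0.378, 0.148 and 0.415 FPKM, and Nek2 and Melk kept 3.51% and 5.04%. Cks1b, a small CDK-binding protein, kept 27.9% at 24.5 FPKM.

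Of 17 genes of the anaphase promoting complex and its regulators, 5 fell, 2 rose and 10 were not called. Fbxo5 (EMI1), an inhibitor of the complex, kept 19.1%, whereas the core subunits Anapc5 and Cdc16 kept 53.3% and 70.3%. Cdc26 and Anapc13 rose by 0.48 and 0.39 log2 (limma adjusted p = 0.00699 and 0.0385). Of 16 further cytokinesis genes, 7 fell and 1 rose. Cep55 and Iqgap3 kept 3.66% and 0.513%, and Kif20b kept 23.2%. Sept9, a septin, went from 20.6 ± 1.89 to 46.1 ± 7.18 FPKM (SD, n = 3 each). Kif20b is also on the list of kinesin and spindle genes and enters the counts of both lists. The total of 145 tested genes holds it only 1 time.

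Among 16 regulators of G2/M transcription, 10 fell and 2 rose. The activators Mybl2 and Foxm1 went from 6.08 ± 1.48 to 0.125 ± 0.117 FPKM and from 5.29 ± 2.14 to 0.494 ± 0.234 FPKM (SD, n = 3 each). Tfdp1, the dimer partner of E2F proteins, and Lin54, the subunit that contacts the CHR element, kept 37.4% and 34.3%. Rbl2, the p130 pocket protein of the repressive complex, rose from 13.2, 10.9 and 10.3 FPKM to 43.5, 24.0 and 45.1 FPKM (log2 change 1.58 ± 0.23, SE, 3 samples a group, limma adjusted p = 0.000393). Nfyc, a subunit of NF-Y, rose by 0.68 log2 (limma adjusted p = 0.00245). Rbl2 overlaps antisense exons of Aktip and Gm45464. Beside Lin54, the repressive complex genes Rbl1, E2f4, Lin9 and Lin52 fell, to 49.3%, 60.4%, 58.4% and 63.1% of their Foxo1ff means. Lin37 and Rbbp4 were not called. These parts of the complex were picked for naming after their values had been seen.

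**Figure D4:**
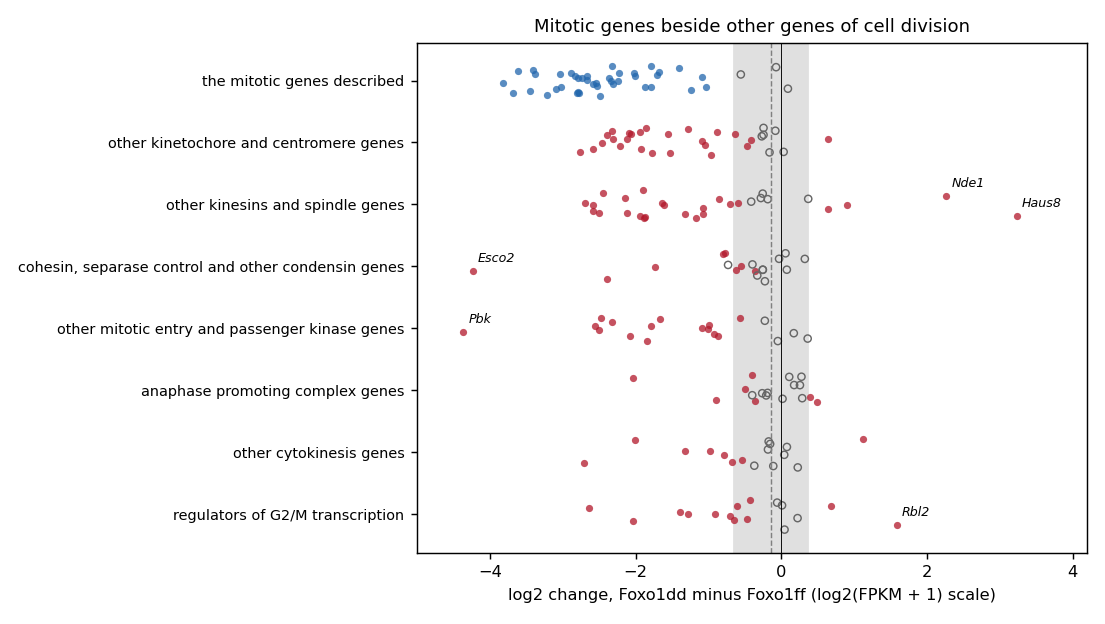
Log2 change (Foxo1dd minus Foxo1ff, log2(FPKM + 1) scale) of each tested gene, for the 43 mitotic genes and 7 lists of other cell-division genes; filled points were called, open points were not, the dashed line is the median and the grey band the quartiles of all tested genes. The 43 genes have a median of -2.53, and Haus8 (3.23) and Nde1 (2.27) lie farthest to the right.

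The order of the Foxo1ff samples was also read in these lists. Foxo1ff 2 was highest and Foxo1ff 1 lowest for 20 of 31 kinetochore, 22 of 29 spindle and 14 of 19 mitotic entry genes, for 8 of 18 cohesin and condensin genes and 7 of 16 regulators, and for 5 of 17 genes of the anaphase promoting complex and 4 of 16 cytokinesis genes. The difference between these shares was not tested.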

How the data were processed

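RNA-seq of laser-captured uterine luminal epithelium was analysed for 3 Foxo1ff and 3 Foxo1dd samples. The authors deposited 1 FPKM value per gene and sample. Per the submitters' processing notes, build mm10, STAR 2.5.2b, featureCounts 1.5.0-p1, Subread, edgeR 3.28.0 and DESeq2 1.12.4 appear without a stated role or sequence. Annotation, gene lengths and strand setting: not given in the sources used here.

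Genes averaging 1 FPKM or more across all 6 samples entered a limma 3.58.1 fit (R 4.3.3) of log2(FPKM + 1) on genotype alone, with trended eBayes and Benjamini-Hochberg adjustment over 11427 genes. The procedure was tested on simulated data. The low values of microRNA and snoRNA genes stepped in whole reads (81% to 86% whole within 0.05 of a read), which put 1 read at 0.0051 to 0.0068 FPKM for a 2 kb gene. This step rests on 26 genes in Foxo1dd 2 and on 93 to 132 in the others.

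Named genes are all 43 members and, from each other list, the 4 smallest p and up to 2 called genes that moved against most of it. Ska1, Ska3 and further genes of the repressive complex were added after their values had been seen. Promoters are shown for the 6 called members of smallest p among the 11 with a CHR match upstream and outside GENCODE exons, and for 2 uncalled members, where the rule had allowed 8 called ones. The members and lists were chosen with earlier results of these data known, so no list was tested as a set. Gene positions and exon overlaps come from GENCODE M21. Each fit was repeated without each sample, with a replicate block, with robust eBayes, after quantile normalization or median-of-ratios scaling, unfiltered, with a 5 FPKM minimum, and with pseudocounts 0.5 and 0.1.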

Additional observations from a re-analysis of the deposited data

How the results depend on the processing

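Of the 43 members, 39 were called lower under all 14 alternatives in which they were tested, and the count called lower was 35 to 41 on leaving out each sample, the 35 being without Foxo1ff 2, where 39 members reached the minimum. With a minimum mean of 5 FPKM, 23 of 26 tested members fell, against 40 of 43 in the main fit. Of the other lists 44 of 98 tested genes fell, against 88 of 145. The minimum applies to the mean of all 6 samples, so it drops genes that are low in Foxo1dd more readily. Under median-of-ratios scaling and under quantile normalization 17 genes of the other lists rose, against 10. The sign of Top2a turned without Foxo1ff 1 (-0.18) and without Foxo1dd 3 (-0.36), and leaving out single samples gave -0.36 to 0.41. That of Ncaph turned under median-of-ratios scaling (0.044), quantile normalization (0.048), without Foxo1ff 2 (0.12) and without Foxo1dd 2 (0.03), and leaving out single samples gave -0.24 to 0.12. The cause was not tested. With the bioreplicate number as a replicate block, 40 members fell and 0 rose, and 84 genes of the other lists fell and 9 rose. Deviations of same-numbered samples correlated at 0.12, 0.11 and -0.13 across genes, so the numbers were not taken as pairs. With 3 samples a group, single values cannot reach an exact p under 0.1.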
